A study of Mus musculus with 32 samples.

Results

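Rosiglitazone (RSG) is a synthetic agonist of PPARγ, and the effect it had on the transcripts of immature dendritic cells (iDCs) was compared between PPARg +/-LysCre and PPARg fl/-LysCre mice. The values come from the 16 arrays of a 32-array series whose labels name the iDC as cell type, chosen by that label alone. They were made from 8 C57Bl/6 mice, each of which gave a vehicle-treated and an RSG-treated iDC culture, so that every mouse carries its own control. Mice 1, 2, 3 and 4 were PPARg +/-LysCre, and mice 5, 6, 7 and 8 were PPARg fl/-LysCre. All 8 mice thus carried the LysCre transgene and a null allele. The first group kept 1 wild-type allele, whereas in the second the remaining allele was flanked by loxP sites. Bone marrow cells were cultured for 9 days with GM-CSF and IL-4 at 20 ng/ml each, with a DMSO and ethanol vehicle or with 1 uM RSG. Cre expressed from the lysozyme M locus acts in myeloid cells, and the extent of deletion in these cultures was not analysed here, since no probe for Pparg could be named. The controls being heterozygous, the comparison is not one against wild-type cells.

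PPARγ is a nuclear receptor that binds DNA as a heterodimer with RXR and is switched on by lipid-like ligands, the thiazolidinedione RSG among them. In dendritic cells it is known for controlling genes of fatty acid handling and lipid antigen presentation, and IL-4 acting through STAT6 is known to increase the response to its ligands. The comparison asks which changes with RSG differ when the last Pparg allele is floxed, and the test reported here is of this difference in response.

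Each array was a single-colour chemiluminescence array with 33012 noncontrol probes. All values are log2 signals after quantile normalization over the 32 arrays, a change with RSG is the RSG array minus the vehicle array of the same mouse (log2), and a difference is the mean change of the PPARg fl/-LysCre mice minus that of the PPARg +/-LysCre mice. A probe was detected at a signal-to-noise ratio of at least 3. Between 13595 and 16683 probes (41.2% to 50.5%) were detected on an iDC array, and those tested were the 15418 that at least 3 of the 4 arrays of some iDC group detected. Arrays of the same group correlated across the tested probes with Pearson's r between 0.941 and 0.984. The RSG-treated array of mouse 5 had the fewest detected probes (13595) and the lowest median signal of the 16 (269.66), and its vehicle array had the highest median signal (613.465). The calls are also given without mouse 5. The arrays pair most probes with gene model identifiers rather than gene names, and 149 of the tested probes (148 genes) could be given a symbol. None of the 16 dendritic cell markers listed for this comparison was among them, so the cell type label was not checked against markers.

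In 3 of the 4 PPARg fl/-LysCre mice fewer probes differed at least 2-fold between the RSG and the vehicle array than in any PPARg +/-LysCre mouse. Of the tested probes, 1629, 1539, 1914 and 1772 moved at least 2-fold in PPARg +/-LysCre mice 1 to 4, which is 9.98% to 12.4%. The same count was 1621, 1032, 784 and 1174 in PPARg fl/-LysCre mice 5 to 8. Mouse 5 lay within the range of the PPARg +/-LysCre mice, and the other 3 lay below it. The means were 1714 ± 164.5 and 1153 ± 351.3 probes (SD, n = 4 each), and the difference did not pass an exact two-sided permutation test (p = 0.0571, adjusted p = 0.0762 over 4 such tests). Without mouse 5 the groups did not overlap, and 4 mice against 3 can give no p below 0.0571. Each count compares 1 RSG array with 1 vehicle array, so it includes scatter between arrays and is not a count of RSG responses. In the mean change over the 4 mice of a genotype, 1097 tested probes reached 2-fold in PPARg +/-LysCre and 503 in PPARg fl/-LysCre mice.

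The number of probes that were higher with RSG was lower in every PPARg fl/-LysCre mouse. These numbered 966, 841, 902 and 921 in PPARg +/-LysCre mice 1 to 4 against 549, 654, 359 and 634 in PPARg fl/-LysCre mice 5 to 8. The groups did not overlap (exact permutation p = 0.0286, the smallest that 4 mice against 4 can give, adjusted p = 0.0571). Probes that were lower with RSG numbered 663, 698, 1012 and 851 in mice 1 to 4. In mice 5 to 8 they numbered 1072, 378, 425 and 540, and here mouse 5 had the highest count of all 8 mice (exact permutation p = 0.286). The part that the low detection on the RSG array of mouse 5 has in its count was not tested. The split into higher and lower probes was made after the total counts were seen.

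**Figure D1:**
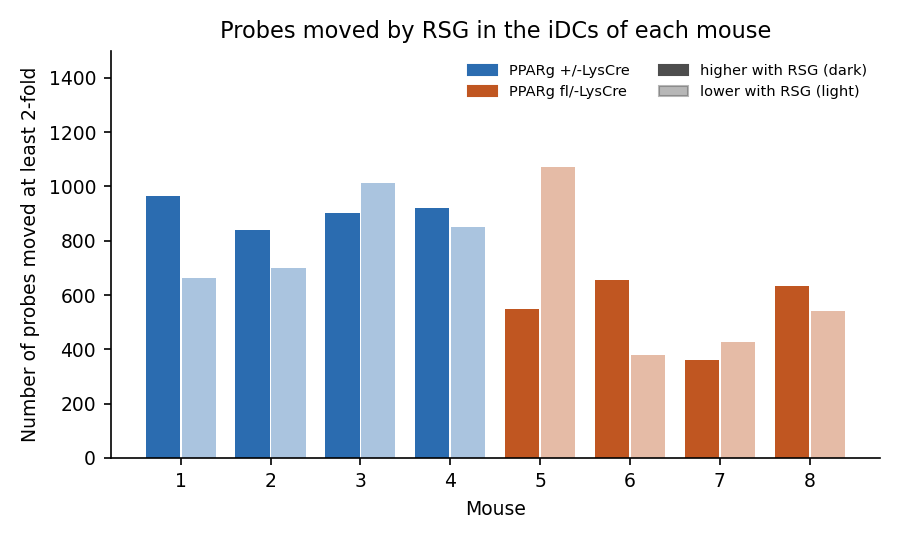
Number of tested probes that moved at least 2-fold with RSG in the iDCs of each mouse (bars from 0; dark bars, higher with RSG; light bars, lower with RSG; blue, PPARg +/-LysCre; orange, PPARg fl/-LysCre). The dark orange bars (359 to 654) all end below the dark blue bars (841 to 966), whereas the light bar of mouse 5 reaches 1072.

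At the level of single probes, the change with RSG differed between the genotypes for 110 of 15418 tested probes (0.713%), at an adjusted p under 0.05 in limma and a difference of at least 1.5-fold. Of the 110, 10 entered the test only through the group with their highest mean level, so their calls are no support for a difference. All counts and means over the 110 include these 10. The difference was higher in PPARg fl/-LysCre mice for 57 probes (0.37%) and lower for 53 (0.344%), and 78 of the 110 reached 2-fold. An unadjusted p under 0.05 was found for 2595 probes, which is 16.8% of those tested. Without mouse 5 the fit called 200 probes (1.3%), 109 higher and 91 lower, of which 85 were among the 110 (77.3% of the 110 and 42.5% of the 200). The count depended on which mice were in the fit. It rose without mouse 5, and it was 5, 0, 1 and 5 without mice 1, 2, 3 and 4 (2175 at an unadjusted p under 0.05 without mouse 2), and 3, 3 and 4 without mice 6, 7 and 8. In these 7 fits the median adjusted p of the 110 probes was 0.0845 to 0.111, and all 110 had an unadjusted p under 0.05, on mice that had also served to choose them. Median scaling of the arrays called 41 probes with a different split, 7 higher and 34 lower, and it moved the median difference of all tested probes from -0.01 to -0.12.

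The 110 called probes had 1 shape in common, which is given as a description because they were chosen on this contrast. In 105 of the 110 the mean change was smaller in PPARg fl/-LysCre mice (9432 of all 15418 tested probes), and in 5 it was as large or larger. The median size of the change was 1.27 in PPARg +/-LysCre mice and 0.25 in PPARg fl/-LysCre mice, against 0.22 and 0.16 over all tested probes. Of the 110, 69 moved at least 2-fold in the PPARg +/-LysCre mean and 3 in the PPARg fl/-LysCre mean. All 57 probes with a higher difference were lower with RSG in the PPARg +/-LysCre mean, and 52 of the 53 with a lower difference were higher with RSG there. The median share of the PPARg +/-LysCre change that remained was -0.0158 (quartiles -0.256 and 0.16). The changes of the 4 PPARg fl/-LysCre mice had a common sign in 58 of the 110 probes, those of the 4 PPARg +/-LysCre mice in 109 (52.7% and 99.1%, against 26% and 38.7% of all tested probes).

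**Figure D2:**
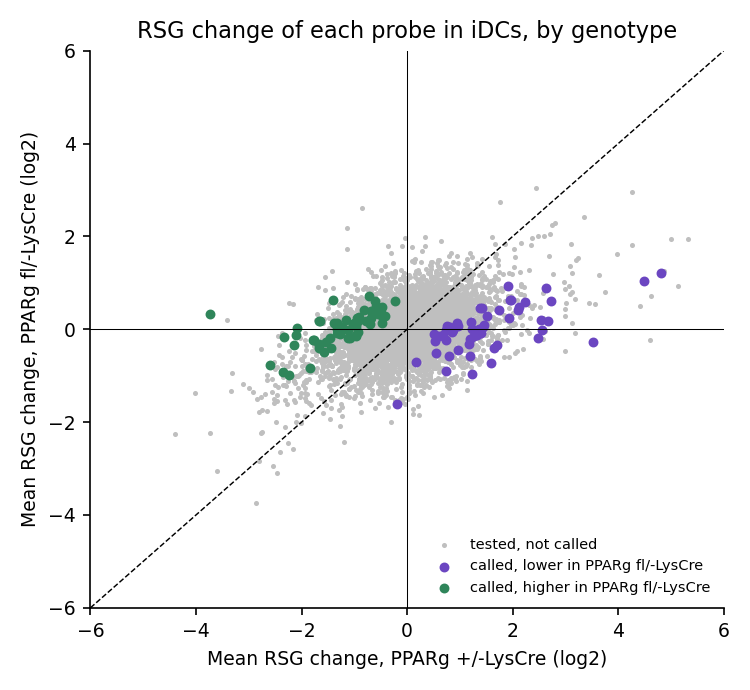
Mean change with RSG in PPARg fl/-LysCre iDCs (vertical axis, log2) against that in PPARg +/-LysCre iDCs (horizontal axis, log2), 1 point per tested probe; the dashed line marks equal change. The 53 probes called with a lower difference (purple) and the 57 called with a higher difference (green) lie mostly far from 0 along the horizontal axis and near 0 along the vertical axis.

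Over the 52 called probes that were higher with RSG in PPARg +/-LysCre cells, the mean change was 1.62, 1.5, 1.57 and 1.57 in mice 1 to 4. It was 0.14, 0.04, 0.00 and -0.03 in mice 5 to 8. Over the 58 that were lower, it was -1.19, -1.25, -1.27 and -1.27 in mice 1 to 4 and -0.18, 0.05, 0.07 and 0.02 in mice 5 to 8. In both sets mouse 5 was the PPARg fl/-LysCre mouse with the change nearest to that of the PPARg +/-LysCre mice. Each scan day held the arrays of 2 mice of 1 genotype, and the mean change over the 52 probes was 1.56 and 1.57 on the 2 days of PPARg +/-LysCre mice and 0.09 and -0.02 on those of PPARg fl/-LysCre mice. Vehicle and RSG arrays of a mouse shared a day, but day and genotype cannot be told apart for the difference itself. With the day as a random block limma called 270 probes. Each day held 1 genotype, so that fit cannot separate the day from the genotype either, and nothing is concluded from its count.

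The difference in change came from the levels under both treatments. For the 53 probes with a lower difference, the median PPARg fl/-LysCre minus PPARg +/-LysCre level was 0.54 with vehicle and -0.67 with RSG. For the 57 with a higher difference it was -0.58 with vehicle and 0.62 with RSG. In 82 of the 110 probes (74.5%) the PPARg fl/-LysCre level was displaced with vehicle toward the RSG level of the PPARg +/-LysCre cells and also fell short of it with RSG, against 27.4% of all tested probes. The gap between genotypes was larger with RSG in 56 of the 110 and larger with vehicle in 54. These levels are part of the contrast that chose the probes and are a description.

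To read every mouse on probes it had not helped to choose, each mouse was left out in turn, the fit was repeated on the other 7, and the change of the mouse left out was placed on the 200 probes with the smallest p, with 0 at the mean of the PPARg +/-LysCre mice and 1 at the mean of the PPARg fl/-LysCre mice of that fit. A mouse with no change on any of these probes would be placed at 0.93 to 1.01, depending on the fit (0.994 for that without mouse 5). Mice 1 to 4 were placed at 0.228, 0.202, 0.298 and 0.2. Mice 6, 7 and 8 were placed at 0.847, 0.938 and 0.842, and mouse 5 at 0.505. The genotypes did not overlap on probes chosen without the mouse in question, and mouse 5 lay between the other mice of both. On the 200 probes chosen without it, mouse 5 was nearer to the PPARg fl/-LysCre mean for 106 and nearer to the PPARg +/-LysCre mean for the remainder. For mice 6, 7 and 8 the count nearer to the PPARg fl/-LysCre mean was 170, 176 and 161, and for mice 1 to 4 it was 40, 24, 40 and 38. With 100 or 500 probes mouse 5 was placed at 0.486 and 0.502. This reading was set up after the calls had been seen and has no test. The other mouse of the same scan day and genotype stayed in each fit, so day and genotype cannot be told apart here either.

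**Figure D3:**
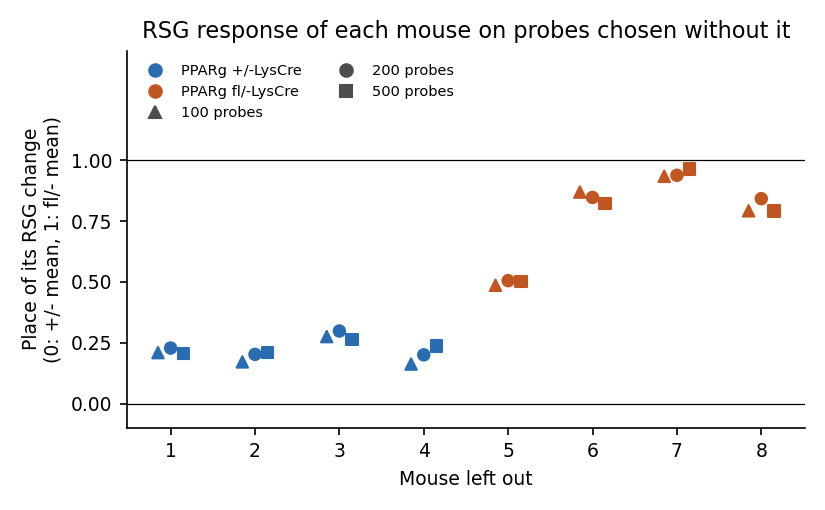
Place of the RSG change of each mouse (vertical axis, no unit; 0, PPARg +/-LysCre mean; 1, PPARg fl/-LysCre mean) on the 100, 200 or 500 probes with the smallest p in the fit of the other 7 mice. Mice 1 to 4 (blue) lie between 0.162 and 0.298, mouse 5 between 0.486 and 0.505, and mice 6, 7 and 8 (orange) between 0.792 and 0.964.

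Among the probes called with 8 mice, the gene models with the most negative fitted differences were mCG142378 and mCG116788.1, which have no symbol here. The difference of mCG116788.1 rests on undetected levels and was -2.84 with an offset before log2. Another called gene model, mCG23510.1, had a fitted difference of -3.465, so the place of mCG116788.1 is not established. Some probes that were not called with 8 mice had larger fitted differences, down to -4.84. The log2 level of mCG142378 in PPARg +/-LysCre mice 1 to 4 was 7.99, 9.06, 9.80 and 8.10 with vehicle and 12.10, 11.94, 13.06 and 11.93 with RSG. In PPARg fl/-LysCre mice 5 to 8 it was 10.52, 9.11, 9.51 and 9.86 with vehicle and 10.72, 9.50, 8.26 and 9.44 with RSG. All 4 RSG-treated PPARg +/-LysCre cultures lay above the other 12 cultures, which overlapped. The probe was detected in 2 of the 4 vehicle-treated PPARg +/-LysCre cultures, so the change in the other 2 rests on undetected levels. The mean change was 3.52 ± 0.56 against -0.27 ± 0.74 (SD, n = 4 each), a difference of -3.79 ± 0.41 (SE; limma adjusted p = 0.0262, and 0.0217 without mouse 5). Leaving out any other mouse lost the call (limma adjusted p 0.0607 to 0.0769), at differences of -4.02 to -3.47.

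The probe for mCG116788.1 was not detected in any vehicle-treated PPARg +/-LysCre culture and was detected in all 4 RSG-treated ones. Its level with RSG was 11.26, 10.95, 11.72 and 10.61 in mice 1 to 4, at least 21.3-fold above vehicle when undetected values are set at the lowest detected signal of their array where they lie below it. In mice 5 to 8 it was 7.11, 7.25, 7.61 and 6.72 with vehicle and 9.48, 8.28, 7.38 and 8.39 with RSG, and 3 of these 8 arrays detected it. The fitted difference of -3.61 takes the undetected levels as listed. The probe entered the test only through the RSG-treated PPARg +/-LysCre group, where it was high, so it had to differ and its p is not given. Mouse 5 had the highest level of the PPARg fl/-LysCre mice with RSG and still lay below the 4 PPARg +/-LysCre mice.

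The most positive differences among the called probes belonged to mCG4867.3 and mCG19287.2. The level of mCG4867.3 was 14.78, 15.09, 15.07 and 16.04 in vehicle-treated and 11.93, 11.33, 11.06 and 11.76 in RSG-treated PPARg +/-LysCre cells of mice 1 to 4. In mice 5 to 8 it was 12.66, 12.34, 12.49 and 12.41 with vehicle and 12.46, 12.82, 13.32 and 12.58 with RSG. Here it was the vehicle-treated PPARg +/-LysCre cultures that stood above the other 12, and PPARg fl/-LysCre cells were low with either treatment. The difference was 4.05 ± 0.34 (SE; limma adjusted p = 0.0149, and 0.0114 without mouse 5). Leaving out mouse 2, 3, 6, 7 or 8 lost the call (limma adjusted p 0.0577 to 0.0734), at differences of 3.88 to 4.09. For mCG19287.2 the change was -1.94, -2.16, -2.49 and -2.72 in mice 1 to 4 and -0.71, 0.56, 0.13 and -0.61 in mice 5 to 8, a difference of 2.17 ± 0.32 (SE; limma adjusted p = 0.0394), and its level ran from 11.69 to 12.26 in vehicle-treated PPARg +/-LysCre cells and from 9.91 to 11.03 in vehicle-treated PPARg fl/-LysCre cells. Under median scaling and in the deposited ratios the difference was 2.08 and missed the threshold (limma adjusted p = 0.0659 and 0.0661). It also missed the threshold when any mouse other than mouse 5 was left out (1.93 to 2.32, limma adjusted p 0.0858 to 0.12).

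**Figure D4:**
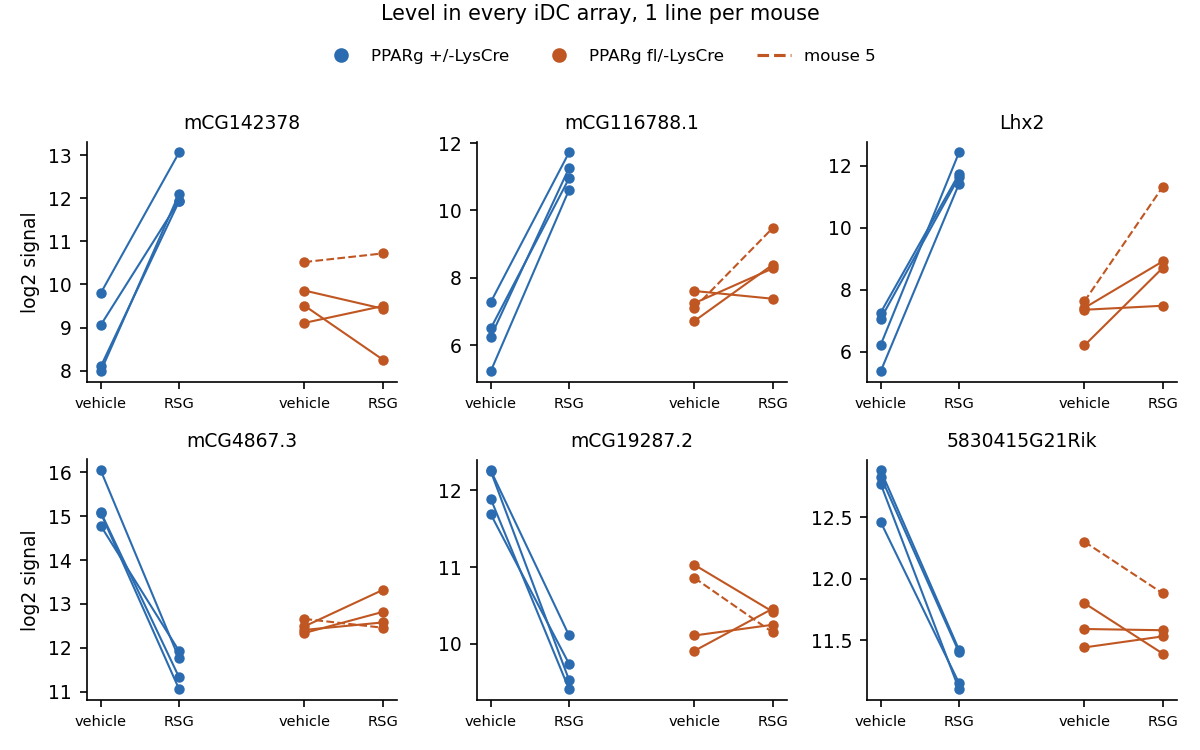
Log2 signal (vertical axes) of 6 probes in the vehicle-treated and RSG-treated iDCs of each mouse, 1 line per mouse (blue, PPARg +/-LysCre; orange, PPARg fl/-LysCre; dashed, mouse 5). The blue lines rise in the upper panels and fall in the lower panels, as in mCG142378 (mean change 3.52) and mCG4867.3 (-3.73), and the orange lines are flatter.

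Among the probes with a symbol, 1 was called with 8 mice (0.671% of 149). This is 5830415G21Rik, a RIKEN cDNA transcript (AK017932.1 in the array files), and all 16 iDC arrays detected it. Its level was 12.83, 12.77, 12.46 and 12.88 with vehicle and 11.40, 11.10, 11.15 and 11.42 with RSG in PPARg +/-LysCre mice 1 to 4. In PPARg fl/-LysCre mice 5 to 8 it was 12.30, 11.80, 11.44 and 11.59 with vehicle and 11.88, 11.39, 11.53 and 11.58 with RSG. RSG-treated cells were at 11.10 to 11.42 and 11.39 to 11.88, and the vehicle-treated PPARg +/-LysCre cells lay above all other cultures. The mean change was -1.46 ± 0.15 against -0.19 ± 0.26 (SD, n = 4 each), and the difference of 1.28 ± 0.16 (SE) had a limma adjusted p of 0.0354 (0.0242 without mouse 5). It missed the threshold under median scaling (1.16, limma adjusted p = 0.0726). The same held when any mouse other than mouse 5 was left out (1.18 to 1.35, limma adjusted p 0.0734 to 0.103).

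Trmt61a, the catalytic subunit of a tRNA adenosine methyltransferase (NM_177374.2), was called only in the fit without mouse 5. Its change was 0.75, 0.61, 0.65 and 0.52 in mice 1 to 4 and 0.38, -0.40, -0.59 and -0.07 in mice 5 to 8. Mouse 5 thus lay on the side of the PPARg +/-LysCre mice, though below all 4. The difference was -0.80 ± 0.21 (SE) with a limma adjusted p of 0.12, and -0.98 ± 0.15 with 0.0409 without mouse 5.

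Lhx2, a LIM homeobox transcription factor (NM_010710.2), was not detected in any of the 8 vehicle-treated iDC cultures. With RSG its level was 11.42, 11.74, 12.43 and 11.64 in PPARg +/-LysCre mice 1 to 4 and 11.32, 8.92, 7.49 and 8.71 in PPARg fl/-LysCre mice 5 to 8, and 3 of the latter arrays detected it. RSG-treated cells were at least 30.7-fold above vehicle in PPARg +/-LysCre mice. No fold is given for PPARg fl/-LysCre mice, where 1 RSG-treated culture did not show the probe above the detection limit either. Mouse 5 (11.32) lay just below the lowest PPARg +/-LysCre mouse (11.42) and above the other 3 of its genotype. The fitted difference, which takes the undetected levels as listed, was -3.37 ± 0.78 (SE) with a limma adjusted p of 0.1. Without mouse 5 it was -3.95 ± 0.68 with 0.0537, so Lhx2 was not called in either fit. With an offset before log2 the difference was -2.77 (limma adjusted p = 0.0799).

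The other named genes with an unadjusted p under 0.05 were not called with 8 mice, and their values follow as a description. Of the 148 genes, 16 had such a p with a negative and 7 with a positive difference (10.8% and 4.73%, against 8.33% and 8.5% of all tested probes, or 15.5% against 16.8% in both directions), and the median difference over the 148 was -0.09 against -0.01 over all tested probes. Eraf, a chaperone of alpha-globin in erythroid cells, changed by 2.03, 2.06, 4.77 and 3.09 in mice 1 to 4. In mice 5 to 8 it changed by 0.94, 1.47, -2.04 and -2.23. Its probe was detected in all 4 RSG-treated PPARg +/-LysCre cultures and in 1 of their vehicle cultures. In PPARg fl/-LysCre mice 2 vehicle cultures and no RSG-treated one detected it, so most of these changes rest on undetected levels. Eraf entered the test only through the RSG-treated PPARg +/-LysCre group, where it was high, so its difference and p are not given. The other erythroid marker with a tested probe was Hba-a1, the alpha-globin gene itself, and its change was -0.92, -1.48, 0.33 and -1.25 in mice 1 to 4 and -1.34, 0.62, -0.32 and 0.78 in mice 5 to 8, with no separation of the genotypes (limma difference 0.77, adjusted p = 0.538). These are 2 of 11 erythroid markers listed, and a contribution of erythroid cells to the Eraf values was not tested.

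Several genes detected on all 16 iDC arrays had changes that did not overlap between the genotypes, which held for 1828 (11.9%) of all tested probes, and none of these genes was called. Rap2b, a Ras-family GTPase, changed by 0.67, 0.49, 0.40 and 0.58 in mice 1 to 4 and by 0.15, 0.05, -0.21 and -0.19 in mice 5 to 8 (limma difference -0.58 ± 0.13 SE, adjusted p = 0.0923, and 0.04 without pairing by mouse at a difference still under 1.5-fold). Tceal9 changed by 0.92 to 1.19 in PPARg +/-LysCre and by 0.25 to 0.65 in PPARg fl/-LysCre mice (limma difference -0.58 ± 0.13 SE, adjusted p = 0.0926). Bcl2a1b, of the Bcl-2 family of apoptosis regulators, changed by -0.05 to 0.37 and by -0.61 to -0.26 (limma difference -0.57 ± 0.14 SE, adjusted p = 0.112), and reads of its near-identical copies by the same probe were not tested. Jun, a subunit of the AP-1 transcription factor, changed by -0.23 to -0.03 and by 0.02 to 0.53 (limma difference 0.40 ± 0.14 SE, adjusted p = 0.208). The same held for Mapk1ip1 (limma difference 0.47, adjusted p = 0.166). Akap7, an anchoring protein of protein kinase A, overlapped through mouse 5, whose change of -0.61 lay among the -0.55 to -1.21 of the PPARg +/-LysCre mice, while mice 6, 7 and 8 had 0.00, 0.18 and -0.10 (limma difference 0.67, adjusted p = 0.181). H2-Q8, a nonclassical MHC class I gene, was higher with RSG in all 4 PPARg fl/-LysCre mice, by 0.25 to 0.86, and changed by -0.20 to 0.38 in PPARg +/-LysCre mice (limma difference 0.46, adjusted p = 0.282). These differences depended on the scaling. Under median scaling they were smaller for Bcl2a1b (-0.36), Jun (0.26), Mapk1ip1 (0.32), Akap7 (0.52) and H2-Q8 (0.35), at limma adjusted p between 0.385 and 0.604. For Rap2b and Tceal9 they were larger (both -0.72, limma adjusted p = 0.115 and 0.125).

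Lgals7, which encodes galectin-7, changed by 1.28, 0.81, 1.09 and 1.23 in mice 1 to 4 and by 0.11, -0.26, 0.48 and 0.33 in mice 5 to 8 (limma difference -0.94 ± 0.19 SE, adjusted p = 0.0729), with 11 of 16 arrays detecting it. Acyp2, an acylphosphatase, changed by 1.40, 0.45, 1.04 and 1.06 and by 0.50, 0.70, -0.01 and -0.54 (limma difference -0.83, adjusted p = 0.239). The nucleolar protein gene Nol12 (limma difference -0.94), the mitochondrial valyl-tRNA synthetase Vars2 (-1.19) and the ring finger gene Mkrn3 (-0.73) had adjusted p between 0.149 and 0.231. The transcript 1110032E23Rik changed by 0.13, -1.06, -2.12 and -2.59 in mice 1 to 4. In mice 5 to 8 it changed by 0.76, 0.38, 0.79 and 1.62, and 9 of its 16 values were detected. Its probe entered the test only through the vehicle-treated PPARg +/-LysCre group, where it was high, so its difference and p are not given. Ghdc had a limma difference of 0.39 (adjusted p = 0.252).

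Of the genes fixed for this comparison from earlier results, Ear1 had a large change with RSG in both genotypes. Ear1, an eosinophil-associated ribonuclease, changed by 2.77, 2.19, 2.73 and 3.55 in PPARg +/-LysCre mice and by 1.72, 2.87, 2.11 and 2.45 in PPARg fl/-LysCre mice. The ranges overlapped widely and the limma difference was -0.52 ± 0.34 (SE, adjusted p = 0.482), with fitted mean folds of 7.01 and 4.88. Ramp3, a partner of the calcitonin receptor-like receptor, changed by -0.92 ± 0.56 and -0.97 ± 0.81 (SD, n = 4 each; limma difference -0.04 ± 0.44 SE, adjusted p = 0.973). The differences of the remaining genes known from earlier results of these data did not pass the test: Tnfsf13 0.06 ± 0.11, Zbtb18 0.14 ± 0.12, Sgms2 -0.26 ± 0.17, Nlrp3 -0.18 ± 0.35 and Paqr3 -0.02 ± 0.30 (SE), at limma adjusted p between 0.494 and 0.978. Without mouse 5 that of Sgms2 was -0.38 ± 0.15 (SE, limma adjusted p = 0.239). Such p-values do not show that the responses were equal. Sfrp4 and Epdr1 were not detected in enough iDC arrays to be tested.

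Few members of the pathway lists had a named probe, and none was called. With 0.713% of all tested probes called, this says nothing about the pathways. Of 44 PPARγ target genes, 2 could be named on the array and 1 was tested, the sphingomyelin synthase Sgms2. Of 34 genes of fatty acid oxidation and lipid handling 3 were tested (Sgms2, Acyp2 and Paqr3; median difference -0.26), of 32 genes of inflammation and innate sensing 3 (Tlr7, Tnfsf13 and Nlrp3; median -0.16), of 28 antigen presentation genes 2 (H2-Q7 and H2-Q8; median 0.21) and of 23 genes responding to IL-4 and STAT6 1 (Ear1). The median over all tested probes was -0.01. H2-Q7, another Q-region MHC class I gene, had a limma difference of -0.04 ± 0.14 (SE, adjusted p = 0.914), and the RNA sensor gene Tlr7 had -0.16 ± 0.19 (adjusted p = 0.717). No interferon response, cell division or cholesterol synthesis gene of the lists was among the named probes. Of the other cell types listed, macrophages, granulocytes, eosinophils, basophils and mast cells, B cells, T and NK cells, plasmacytoid dendritic cells and stromal cells had no tested marker.

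RefSeq promoter windows (GRCm38.p6, 250 bases before to 50 after a start site) were found for 13 of 18 named genes, which are those called in either fit and, of the others at an unadjusted p under 0.05, up to 10 in each direction. Those of Lhx2 and Trmt61a are shown as the gene detected in iDCs with RSG but not with vehicle and the gene whose call depends on mouse 5, and that of Nol12 as the only one of the 13 with the element AGGTCA, which nuclear receptor dimers bind as a pair, on either strand. Capitals mark this element.
Lhx2, chr2:38339031-38339330, + strand: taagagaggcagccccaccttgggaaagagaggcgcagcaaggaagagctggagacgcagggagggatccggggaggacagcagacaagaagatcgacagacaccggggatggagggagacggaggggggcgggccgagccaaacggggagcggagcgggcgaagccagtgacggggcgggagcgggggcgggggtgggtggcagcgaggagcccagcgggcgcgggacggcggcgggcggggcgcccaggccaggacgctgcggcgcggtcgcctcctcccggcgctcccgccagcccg
Trmt61a, chr12:111677855-111678154, + strand: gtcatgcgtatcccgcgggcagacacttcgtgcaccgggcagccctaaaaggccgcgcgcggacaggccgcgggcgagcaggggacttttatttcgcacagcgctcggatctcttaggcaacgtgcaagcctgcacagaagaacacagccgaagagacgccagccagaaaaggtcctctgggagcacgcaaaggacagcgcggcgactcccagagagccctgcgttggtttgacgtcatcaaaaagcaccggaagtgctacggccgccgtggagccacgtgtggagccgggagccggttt
Nol12, chr15:78934683-78934982, + strand: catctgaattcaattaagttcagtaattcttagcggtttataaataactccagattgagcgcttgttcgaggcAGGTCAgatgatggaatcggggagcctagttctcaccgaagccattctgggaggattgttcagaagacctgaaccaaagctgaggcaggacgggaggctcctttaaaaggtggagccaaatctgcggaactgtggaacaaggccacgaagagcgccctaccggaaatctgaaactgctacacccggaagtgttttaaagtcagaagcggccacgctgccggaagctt

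The element AGGTCA occurs in 16.3% of the 32851 promoter windows of the table. A pair of these elements 1 base apart (direct repeat 1, the spacing PPARγ and RXR dimers prefer) occurs in 13 of all windows and in none of the 13 named genes, and TTC and GAA spaced by 4 bases, the STAT motif with the spacing preferred by STAT6, occurs in 6.95% of windows and among the 13 genes in that of Mkrn3. A match is a description of the letters only. The window of Lhx2 is the first of 2 in the table and is 74.7% G and C, that of Trmt61a 63% and that of Nol12 49.7%.

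A few gene models had more than 1 probe. For 10 pairs of tested probes at least 1 of which was called, the difference of the other probe had the same sign in 9, with an unadjusted limma p under 0.05 in the same 9, and in 1 pair both probes were called, with differences of -1.63 and -1.68. Over all 854 gene models with at least a pair of tested probes, 63.1% had the same sign. The probes of a gene model read the same RNA and are no replicates.

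The same contrast in macrophages, differentiated from bone marrow of the same mice with M-CSF and IL-4, called 0 of the 15418 probes with limma (0%; 1223 probes or 7.93% at an unadjusted p under 0.05; 1 call in a fit without pairing by mouse). The three-way test of whether the genotype difference in the RSG effect was itself different between iDCs and macrophages also called 0 probes with limma (0%; 1753 at an unadjusted p under 0.05; 1 call without pairing), and 2 without mouse 5. It is therefore not shown that the called differences are particular to iDCs. The number of probes moved at least 2-fold in macrophages was 1155, 972, 875 and 1268 in mice 1 to 4 and 654, 804, 572 and 822 in mice 5 to 8, and the groups did not overlap (exact permutation p = 0.0286, adjusted p = 0.0571 over the 4 tests).

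In the macrophage arrays, whose differences took no part in choosing them, the 110 probes called in iDCs had a difference of the same sign in 87 (79.1%, against 52.8% of all tested probes), and 28 of the 110 (25.5%) had an unadjusted limma p under 0.05, against 7.93% of all tested. The macrophage arrays came from the same mice and scan days as the iDC arrays, so these shares are no independent check. The median difference in macrophages was 0.19 for the probes with a higher difference in iDCs and -0.32 for those with a lower one. Their medians in iDCs, 1.20 and -1.40, come from the contrast that chose the probes and are raised in size by that choice, so the sizes in the cell types are not compared. The mean change in macrophages over the 52 probes that were higher with RSG was 0.37, 0.42, 0.50 and 0.47 in mice 1 to 4 and 0.32, -0.06, -0.27 and 0.02 in mice 5 to 8. Mouse 5 again lay nearest to the PPARg +/-LysCre mice. Over the 58 that were lower with RSG it was -0.37, -0.22, -0.33 and -0.39 in mice 1 to 4 and -0.26, -0.07, 0.02 and -0.21 in mice 5 to 8, and there the genotypes overlapped through mouse 5. 5830415G21Rik changed in macrophages by -1.34, -0.38, -0.97 and -0.35 in mice 1 to 4 and by 0.14, -0.44, 0.02 and -0.10 in mice 5 to 8 (limma difference 0.67 ± 0.25 SE, adjusted p = 0.565). Of the named gene models called in iDCs, mCG19287.2 had a macrophage difference of 0.65 ± 0.21, mCG142378 one of -0.66 ± 1.05 and mCG116788.1 one of -0.32 ± 0.45 (SE; limma adjusted p 0.461, 0.92 and 0.906), each with the sign it had in iDCs. The macrophage difference of Lhx2 was 0.12 ± 0.75 (SE), that of Trmt61a -0.03 ± 0.17 and that of mCG4867.3 -0.30 ± 0.55 (limma adjusted p 0.98, 0.979 and 0.93). Those of Lhx2 and mCG4867.3 had the sign opposite to that in iDCs. Ear1 had a macrophage difference of -0.99 ± 0.29 (SE, limma adjusted p = 0.396).

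Conversely, the 100 probes with the smallest p for a rise and the 100 with the smallest p for a fall with RSG over the macrophages of all 8 mice were read in iDCs. Over the first 100 the mean change in iDCs was 1.00, 0.70, 0.76 and 0.76 in PPARg +/-LysCre mice 1 to 4 and 0.39, 0.49, 0.26 and 0.36 in PPARg fl/-LysCre mice 5 to 8. The genotypes did not overlap, and all 4 PPARg fl/-LysCre mice kept a mean above 0. Over the second 100 it was -0.26, -0.50, -0.64 and -0.43 in mice 1 to 4 and -0.47, 0.12, 0.11 and 0.01 in mice 5 to 8. Mouse 5 lay among the PPARg +/-LysCre mice here and the other 3 were near 0. In the macrophages that chose them the first 100 had mean changes of 0.97 to 1.14 and 0.50 to 0.76. These sets were chosen by a p over all 8 mice with no genotype term, which favours probes that moved alike in both genotypes. The means of the PPARg fl/-LysCre mice are therefore not free of that choice. Both sets come from the same mice and are given without a test.

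**Figure D5:**
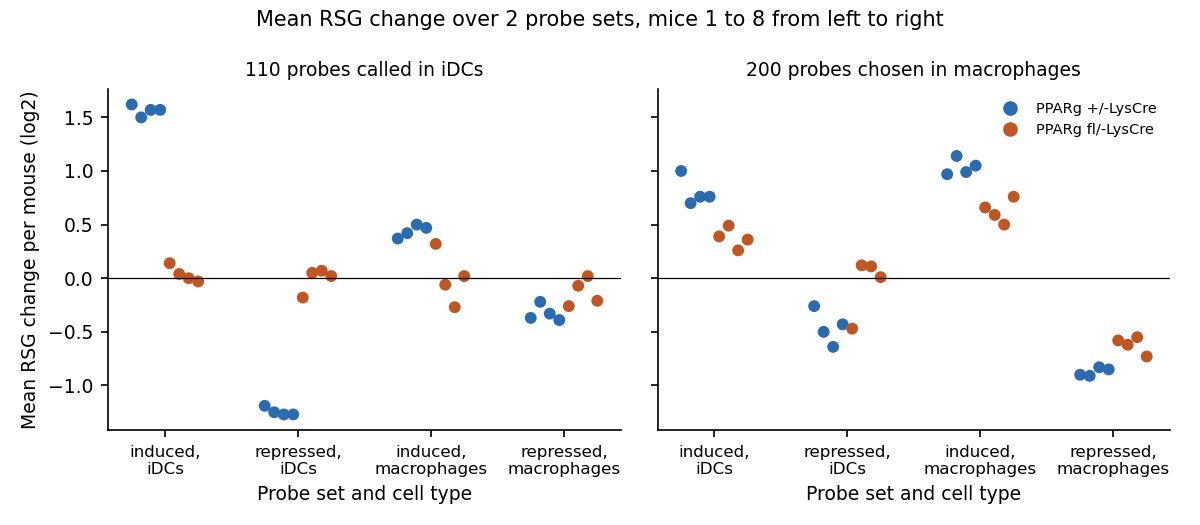
Mean change with RSG per mouse (vertical axis, log2; points are mice 1 to 8 from left to right within each column; blue, PPARg +/-LysCre; orange, PPARg fl/-LysCre) over the 110 probes called in iDCs (left; 52 higher and 58 lower with RSG) and over 200 probes chosen in macrophages (right; 100 higher and 100 lower), read in iDCs and in macrophages. In the first column of the left panel blue points lie at 1.5 to 1.62 and orange points at -0.03 to 0.14; in the first column of the right panel they lie at 0.70 to 1.00 and 0.26 to 0.49.

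Signal limits some of these values. All 16 iDC arrays detected 88 of the 110 called probes (80%, against 70.4% of all tested probes), and for 11 of the 110 (10%, against 5.72%) at least 1 of the 4 groups had no array that detected the probe. Of the 110, 10 entered the test through 1 group alone, the one with their highest mean level, against 6.16% of all tested probes. Where the signal-to-noise ratio was 1 or less, the listed signal was the probe's own standard deviation, so a change involving such a value is not a measured fold.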

How the data were processed

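RNA of the iDCs and macrophages of 8 mice was read on 32 single-colour chemiluminescence arrays. The study's methods describe the processing of its arrays of another make only (per-array 50th percentile, per-gene median and a t-test). The authors deposited, per array, a background-corrected signal intensity of each probe with its standard deviation, a signal-to-noise score and quality flags, and a series table of linear ratios, whose values, compared with the signals, were signals divided by the median of the array and then by that of the probe (0.0745% of values lay more than 0.01 in log2 from this reading; column medians 0.951 to 1.06). The scale of an array differed from its median signal by a constant within 0.00369 in log2.

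Log2 signals were quantile normalized over 32 arrays. The RSG minus vehicle difference of each mouse was fitted by genotype with limma 3.58.1 in R 4.3.3, on the 15418 probes with a signal-to-noise ratio of at least 3 on 3 of 4 arrays of an iDC group, with calls at 1.5-fold and an adjusted p under 0.05 (Benjamini-Hochberg). The other 17594 probes were left out as too dim. Pairing follows from the mouse: deviations of the vehicle and RSG arrays of a mouse from their group means correlated at 0.0489 to 0.606 (median 0.2), and those of different mice at a median of -0.0685. Deviations from a group mean sum to 0 over the group, so the value for different mice is tied to that for the same mouse. It gives no separate support for pairing. Counts per mouse were tested by exact permutation. The fit was tested on simulated data, of which no outcome is given here. Precision is limited by the number of arrays.

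Symbols came from a RefSeq table for 317 probes and from the supplementary tables for 8 of the 33012. Named were probes with a symbol called with 8 mice or without mouse 5, up to 10 of the largest positive and of the largest negative differences among others at an unadjusted p under 0.05, 15 genes and the pathway lists set in advance, and of called probes without a symbol the 2 largest in each direction. The members of all lists, the genes and the use of mouse 5 as an exclusion were chosen with earlier results of these data known. Alternatives covered the pairing, the scaling, the filter, the thresholds, the offset, the flags, the methods' t-test, the scan day, array weights and each mouse.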

Additional observations from a re-analysis of the deposited data

Results flagged for a closer look

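The test of the difference itself called 110 probes with 8 mice and 200 without mouse 5. Of the 110, 10 entered the test only through the group with their highest mean level, so their calls are no support. How many of the 200 did so was not counted. Of the probes named, a difference was called for 5830415G21Rik (difference 1.28), mCG4867.3 (4.05), mCG19287.2 (2.17) and mCG142378 (-3.79) with 8 mice and for Trmt61a (-0.98) without mouse 5. The probe of mCG116788.1 (-3.61) was also called with 8 mice, but only 7 of 16 arrays detected it and it entered the test through the group where it was high, so this value is no measured difference. Among 72 groups of 4 values examined for a single mouse apart from the other 3, 2 had one, where chance gives about 1 in 20. The change of Ghdc was 0.39 in PPARg fl/-LysCre mouse 6 and -0.11 to -0.03 in the other 3 mice of its group. The change of Sgms2 was 0.36 in PPARg fl/-LysCre mouse 5 and -0.19 to -0.10 in the other 3.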

How the results depend on the processing

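With 8 mice the count of 110 called probes became 41 under median scaling (7 higher, 34 lower), 42 in the deposited ratios (7 and 35), 71 in the assay-normalized signal (11 and 60), 0 when dim probes were kept (3120 had an unadjusted p under 0.05), 71 with a filter over all 8 groups, 372 among probes detected on all 16 iDC arrays, 183 with an offset before log2, 23 and 1098 by the methods' t-test with and without adjustment, 270 when scan day was a random block and 266 with array weights. Without mouse 5 the count of 200 became 108, 112 and 92 under the same 3 scalings, 3 when dim probes were kept, 574 among probes detected on all 16 arrays, 28 and 1240 by the t-test, 457 with the scan day and 315 with array weights. Without pairing by mouse (no replicate block) the counts were 77 and 241, 1 in macrophages and 1 for iDCs against macrophages, and 50 of the 77 were among the 110. Median scaling called 2 probes in macrophages. Leaving out each mouse gave 0 to 200 calls from 110, 6 (without mouse 7) to 81 (without mouse 1) from 200, 0 in macrophages, and 0 to 2 for iDCs against macrophages. The difference in probes moved at least 2-fold (-560.8 per mouse) was -288.8 with exact p = 0.0286 among probes detected on all 16 arrays, and -716.8 to -437.8 (p at most 0.114) when a mouse was left out. Of the genes never called, Ramp3 turned from -0.04 to 0.21 with array weights and ran from -0.31 to 0.29 without single mice, Tnfsf13 turned from 0.06 to -0.10 under median scaling and in the deposited ratios (-0.01 to 0.09 without single mice), and Nlrp3 (-0.38 to 0.08) and Paqr3 (-0.25 to 0.15) turned without single mice. The cause of these shifts was not tested; fewer probes or mice entered the stricter filter and the left-out fits. Of the 5 named probes called with 8 mice, 5830415G21Rik and mCG19287.2 were called in 4 of 6 other settings. All 6 called mCG4867.3 and mCG142378. The calls of mCG116788.1 are not counted here, since it entered the test through the group where it was high. Leaving out a mouse lost the call in 5 of 8 fits for mCG4867.3 and in 7 of 8 for each of mCG19287.2, mCG142378 and 5830415G21Rik. Their differences in these fits ran from 3.86 to 4.34 (mCG4867.3), 1.93 to 2.35 (mCG19287.2), -4.02 to -3.47 (mCG142378) and 1.18 to 1.35 (5830415G21Rik). The fitted difference of mCG116788.1, which rests on undetected levels, ran from -4.00 to -3.14. With mCG116788.1 left aside, the limma adjusted p of the named probes called with 8 mice ran from 0.000604 to 0.12 over all these alternatives.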
